A study of Mus musculus with 24 samples.

Results

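The 8 genes described here, Srebf2, Insig1, Hmgcs1, Idi1, Fdft1, Sqle, Lss and Cyp51, encode enzymes and regulators of cholesterol synthesis. They were taken as a list of sterol synthesis and SREBP2 pathway genes, and each was read from its probe set with a single symbol and the highest mean signal, which makes them 8 of 19938 genes on the first array platform and 8 of 18194 on the second. The list was chosen with earlier results of these data known. Shares and medians of the 8 genes set beside those of all genes are therefore descriptions, not tests. Mouse embryonic stem cells (ES) were taken in culture through a progenitor stage (NP, neuronal progenitors) to terminal neurons (TN). The genotypes address what changes without REST, a transcriptional repressor of neuronal genes in other cell types. On the first platform, 18 Affymetrix arrays of the strain Black Agouti 129 fell into 6 groups of 3: RESTko and RESTwt at ES, RESTko and RESTwt at NP, and RESTko and RESThet at TN. On the second platform, 6 arrays held RNA of wildtype cells, strain mixed 129Sv-C57Bl/6, with 2 arrays per stage. Values are log2 signals as deposited, SD is over the arrays of a group, and a difference with its standard error (SE) is on the log2 scale. The labels call the arrays biological replicates without saying whether the cultures were separate or whether a genotype was 1 clone, so a p-value reflects the spread among these arrays only.

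Cholesterol is built from acetyl-CoA through mevalonate, farnesyl pyrophosphate, squalene and lanosterol. The transcription factor SREBP2, encoded by Srebf2, switches on most genes of the pathway when membrane sterol is low: SCAP carries it to the Golgi, where proteases free its active part, and INSIG proteins hold SCAP in the endoplasmic reticulum when sterol is plentiful. In the brain, cholesterol is made locally, because lipoproteins of the blood do not cross the blood-brain barrier. Hmgcs1 (HMG-CoA synthase) acts before mevalonate, Idi1 isomerizes isopentenyl pyrophosphate, and Fdft1 (squalene synthase) makes squalene. Sqle (squalene epoxidase) and Lss (lanosterol synthase) lead to lanosterol, and Cyp51 removes its 14-alpha methyl group.

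In the mouse annotation GRCm38.p6, the regulators lie at chr15:82147269-82205379 (Srebf2) and chr5:28071412-28078662 (Insig1). The enzymes lie at chr13:119690351-119708260 (Hmgcs1), chr13:8885606-8892396 (Idi1), chr14:63145150-63181687 (Fdft1), chr15:59315092-59331193 (Sqle), chr10:76531565-76557139 (Lss) and chr5:4080674-4104697 (Cyp51). Promoter windows from RefSeq on GRCm38.p6, running from 250 bases before to 50 after the start of the gene, were matched for 6 of the 8 genes. The windows of Hmgcs1 (chr13:119690101-119690400), Insig1 (chr5:28071162-28071461) and Idi1 (chr13:8885356-8885655) are shown because these genes differed between genotypes, and that of Srebf2 (chr15:82147019-82147318) because it encodes the factor itself. All 4 are on the plus strand, 5′ to 3′, and capitals mark matches, on either strand, to TCACNCCA (the core of a sterol regulatory element), CCAAT (read as ATTGG on the other strand) or GGGCGG (a GC box, read as CCGCCC). In these windows no match of a motif overlapped a match of another.
Srebf2: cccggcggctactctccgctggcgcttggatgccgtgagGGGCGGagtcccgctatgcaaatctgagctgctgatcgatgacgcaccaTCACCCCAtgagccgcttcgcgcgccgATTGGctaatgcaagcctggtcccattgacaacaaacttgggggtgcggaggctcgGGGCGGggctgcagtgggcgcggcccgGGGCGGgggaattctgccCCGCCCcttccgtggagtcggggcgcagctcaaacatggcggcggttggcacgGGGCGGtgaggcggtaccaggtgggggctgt
Insig1: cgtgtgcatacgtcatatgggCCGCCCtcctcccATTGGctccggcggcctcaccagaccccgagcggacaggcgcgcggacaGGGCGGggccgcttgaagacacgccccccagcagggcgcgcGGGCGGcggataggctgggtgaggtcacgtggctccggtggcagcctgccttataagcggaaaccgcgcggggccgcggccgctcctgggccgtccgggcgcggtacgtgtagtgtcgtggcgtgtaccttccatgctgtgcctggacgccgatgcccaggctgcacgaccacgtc
Hmgcs1: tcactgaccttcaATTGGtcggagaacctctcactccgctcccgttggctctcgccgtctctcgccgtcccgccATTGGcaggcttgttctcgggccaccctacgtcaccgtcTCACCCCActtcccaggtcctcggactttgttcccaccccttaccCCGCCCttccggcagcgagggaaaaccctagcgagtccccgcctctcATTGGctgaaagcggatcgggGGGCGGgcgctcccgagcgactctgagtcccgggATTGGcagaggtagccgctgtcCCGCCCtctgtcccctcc
Idi1: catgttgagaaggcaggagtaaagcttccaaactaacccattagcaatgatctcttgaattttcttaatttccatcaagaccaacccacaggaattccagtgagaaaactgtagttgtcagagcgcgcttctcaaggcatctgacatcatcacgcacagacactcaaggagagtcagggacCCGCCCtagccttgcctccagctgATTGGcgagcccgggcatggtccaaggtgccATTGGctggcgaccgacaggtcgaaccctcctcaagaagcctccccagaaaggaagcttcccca

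TCACNCCA occurred once in the windows of Hmgcs1, 137 bases before the start, and Srebf2, 162 bases before it. That is 2 of 6 members, against 4.36% of 32851 RefSeq windows. CCAAT and GGGCGG each occurred in 6 of 6 members, against 37.4% and 35.7% of all windows. Hmgcs1 held 4 matches to CCAAT and Srebf2 held 5 to GGGCGG. The core of RE1, the element that REST binds, was in 0 of 6 member windows and in 0.0365% of all windows. Of 12 other sterol enzymes with a window, 1 held TCACNCCA, 11 held CCAAT and 11 held GGGCGG. A match is a description of these letters only, and no match says only that the letters are not in this window.

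Across genes, Pearson's r lay between 0.992 and 0.998 for arrays of 1 group and between 0.763 and 0.995 for arrays of different groups. All 10 pluripotency markers fell and all 10 progenitor markers rose between ES and NP in each of the 3 courses. Rest itself did not follow the labels at every stage. It averaged 8.61 ± 0.07 on ES arrays labelled RESTko and 8.96 ± 0.02 on those labelled RESTwt (difference -0.36, limma adjusted p = 0.00234). At NP the means were 7.47 ± 0.09 (RESTko) and 7.48 ± 0.03 (RESTwt), with adjusted p = 0.958. At TN they were 7.37 ± 0.09 (RESTko) and 7.03 ± 0.03 (RESThet), higher in the arrays labelled RESTko (adjusted p = 0.0187), which goes against the label. The exon deleted is not given in the sources used here, and the direction of every comparison of genotypes below rests on the labels. The titles of the TN arrays begin with another numeral than those of the ES and NP arrays of the first platform. The labels do not say what it stands for, and on that platform it cannot be told apart from the stage.

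All 8 genes had their highest level at TN on the first platform, and the lower part of the order differed between them. For Hmgcs1 the order of group means was ES RESTwt, ES RESTko, NP RESTwt, NP RESTko, TN RESThet and TN RESTko, and the only neighbours with overlapping arrays were ES RESTko and NP RESTwt. Srebf2 and Cyp51 also had their lowest means at ES. In Srebf2 the first 3 groups overlapped from neighbour to neighbour, and in Cyp51 the first 4. For Insig1, Idi1, Sqle, Lss and Fdft1 the lowest mean was that of NP RESTwt. Fdft1 ran NP RESTwt, NP RESTko, ES RESTwt, ES RESTko, with no overlap between neighbours up to TN RESThet. The TN groups overlapped in 7 of the 8 genes, Hmgcs1 being the exception. The plot of log2 signal on each array shows these orders.

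**Figure D1:**
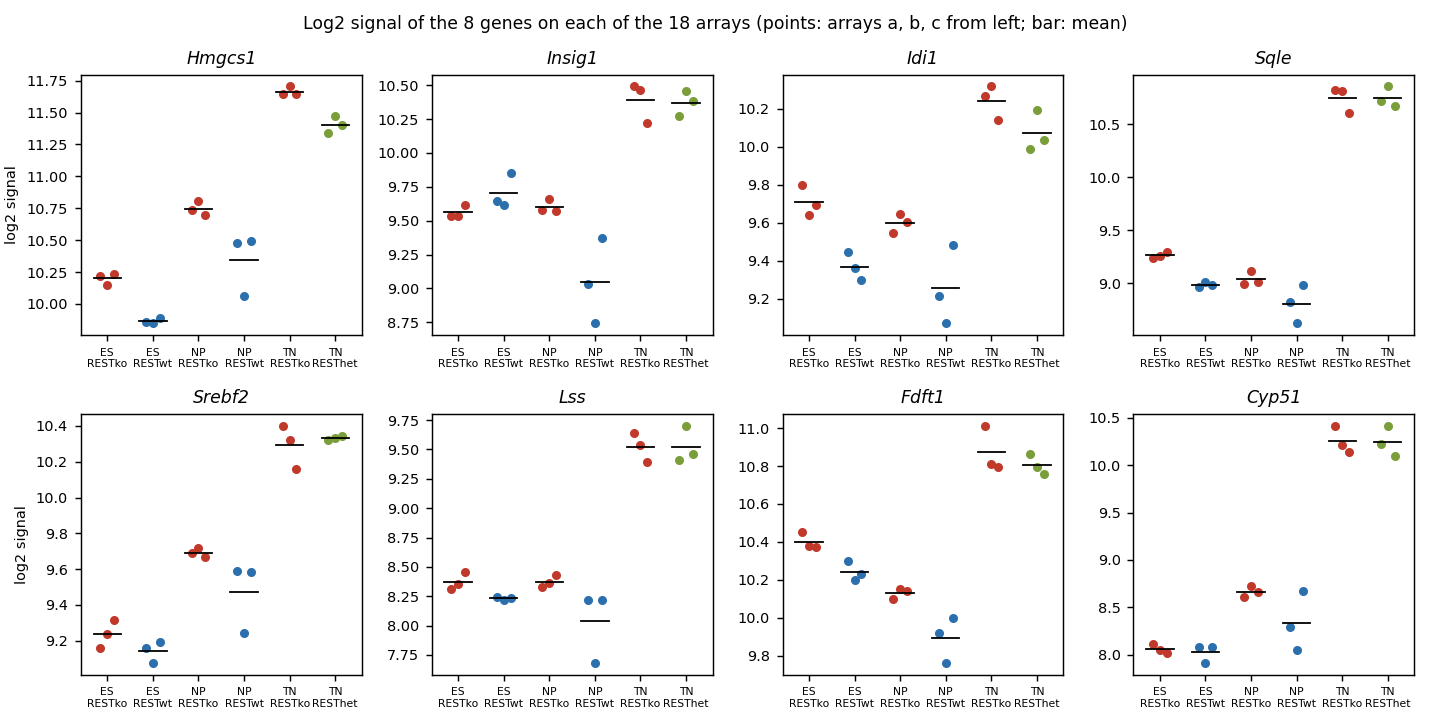
Log2 signal (vertical axis) of the 8 genes on the 18 arrays of the first platform, with groups along the horizontal axis, a point for each array and a bar for the group mean. The 3 NP RESTwt arrays are spread more widely than the 3 NP RESTko arrays in every panel, and the TN arrays lie highest in all 8.

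At ES, Hmgcs1 and Idi1 were higher in the arrays labelled RESTko. Hmgcs1, at the entry to the pathway, read 10.22, 10.15 and 10.23 on the RESTko arrays, against 9.86, 9.85 and 9.89 on the RESTwt arrays. The groups did not overlap, and each was tight. The difference was 0.34 (SE 0.09, 1.26-fold, limma adjusted p = 0.0255). Idi1, the isomerase that feeds isoprene units into the pathway, read 9.80, 9.64 and 9.70 in RESTko, against 9.44, 9.36 and 9.30 in RESTwt. Here too every RESTko array lay above every RESTwt array, by a difference of 0.34 (SE 0.09, 1.27-fold, limma adjusted p = 0.0281). A second Idi1 probe set gave the same size of difference (0.34, adjusted p = 0.0285).

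Sqle, squalene epoxidase, missed the threshold at ES with groups that did not overlap: 9.24, 9.26 and 9.30 in RESTko, against 8.96, 9.02 and 8.99 in RESTwt (difference 0.28, SE 0.09, limma adjusted p = 0.0584). The differences of Fdft1 (0.16), Lss (0.14), Srebf2 (0.09) and Cyp51 (0.03) were not called. Insig1 read 9.53, 9.54 and 9.62 in RESTko, against 9.65, 9.61 and 9.85 in RESTwt, the only negative difference of the 8 (-0.14, SE 0.12, adjusted p = 0.565). So 2 of 8 genes were called higher at ES and 0 lower, where 9.24% of all 19938 genes were called, 5.19% higher and 4.05% lower. In 5 of 8 (Hmgcs1, Idi1, Sqle, Fdft1, Lss) all RESTko arrays lay above all RESTwt arrays, as in 14.4% of all genes. The members' median difference was 0.15, against -0.03 over all genes. Both calls ended when any of 4 ES arrays (RESTko a or c, RESTwt b or c) was left out, with adjusted p of Hmgcs1 up to 0.0848 and of Idi1 up to 0.125, while their differences kept their sign. Without ES RESTwt array a, Idi1 alone stayed called. Beside these values, neuronal markers differed (4 of 10 higher in RESTko), as did endoderm and epithelial markers (4 of 10 higher) and pluripotency markers (3 of 10 lower), and their part in the result was not tested. In bulk RNA, fewer cells of a type and less RNA per cell cannot be told apart.

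At NP, Insig1, Hmgcs1 and Idi1 were higher in the arrays labelled RESTko, and all 8 genes had a positive difference. Insig1, which retains SCAP in the endoplasmic reticulum and is itself a target of SREBP2, read 9.58, 9.66 and 9.57 in RESTko, against 9.04, 8.74 and 9.37 in RESTwt. The RESTko arrays nearly coincided, and the RESTwt arrays were spread below them. The difference was 0.55 (SE 0.12, 1.47-fold, limma adjusted p = 0.0076). Hmgcs1 read 10.74, 10.80 and 10.70 in RESTko, against 10.48, 10.06 and 10.49 in RESTwt. The groups did not overlap, and RESTwt array b stood apart from the other RESTwt arrays. Hmgcs1 differed by 0.40 (SE 0.09, 1.32-fold, adjusted p = 0.00977). Idi1 read 9.54, 9.65 and 9.61 in RESTko, against 9.22, 9.07 and 9.48 in RESTwt, a difference of 0.34 (SE 0.09, 1.27-fold, limma adjusted p = 0.0312). Its second probe set gave 0.30 (adjusted p = 0.0584) and was not called.

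The other 5 genes were not called at NP. Lss averaged 8.37 ± 0.05 in RESTko and 8.04 ± 0.31 in RESTwt (difference 0.33, SE 0.12, limma adjusted p = 0.104). Cyp51 averaged 8.66 ± 0.06 in RESTko and 8.34 ± 0.31 in RESTwt (0.33, SE 0.12, limma adjusted p = 0.13). The difference was 0.24 for Fdft1 (adjusted p = 0.0661), 0.23 for Sqle (0.135) and 0.22 for Srebf2 (0.16). Thus 3 of 8 genes were called higher and 0 lower, where 8.03% of all genes were called at NP, 4.32% higher and 3.71% lower. In 7 of 8 genes all RESTko arrays lay above all RESTwt arrays, Cyp51 being the exception, where this held for 12.8% of all genes. The members' median difference was 0.33 (0.18 without RESTwt array b), against 0.01 over all genes. As the members were chosen with earlier results of these data known, these shares and medians only describe them. The ES and NP comparisons share no arrays, and each gene's differences at the 3 stages are set side by side in the plot of genotype differences.

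**Figure D2:**
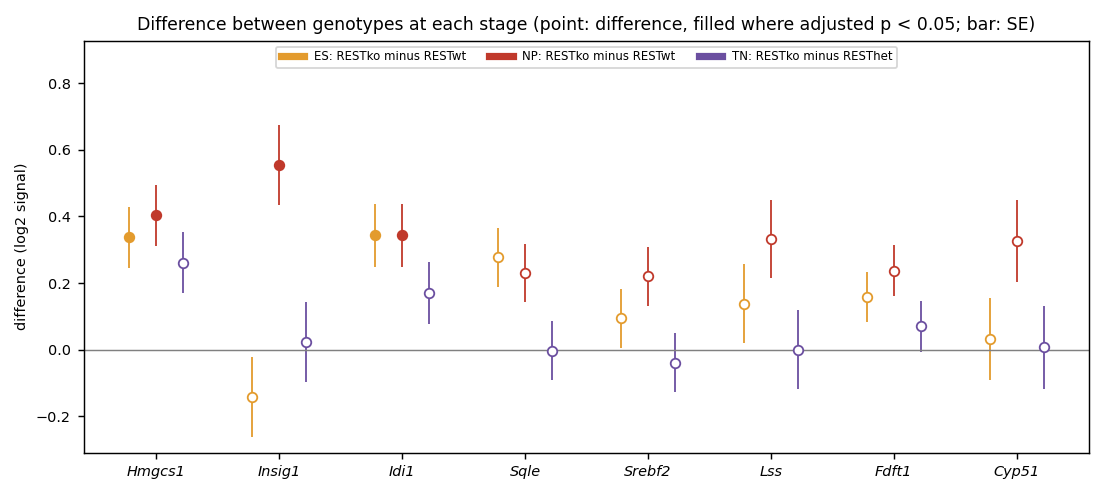
Difference between genotypes in log2 signal (vertical axis) for each of the 8 genes at ES, NP and TN, with bars for the SE and filled points where limma's adjusted p was under 0.05. All 8 NP points lie above 0, from 0.22 to 0.55, and no TN point is filled.

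The RESTwt arrays at NP were spread more widely than the RESTko arrays. The SD of the 8 genes had a median of 0.23 over the NP RESTwt arrays, against 0.05 over the NP RESTko arrays, and the median SD of all genes in NP RESTwt was 0.12. RESTwt array b lay below its group mean in all 8 genes, with deviations of -0.36 (Lss) to -0.13 (Fdft1), and RESTwt array c lay above it in all 8, with deviations of 0.105 (Fdft1) to 0.335 (Cyp51). The median deviation of all genes on these arrays was -0.005 and 0.001. A normalization between arrays would level such medians, and whether one was run is not stated. They therefore do not decide whether these arrays differed from the others as wholes. On array b the mean log2 level of 10 neuronal markers was the lowest of the NP arrays (7.30), and that of 10 endoderm and epithelial markers the highest (7.965). Pluripotency markers (7.114) and cell cycle genes (9.886) were also highest there. RESTwt array c had a higher mean of the 8 genes than array a (9.351 against 9.197) but lower neuronal markers (7.728 against 7.947). The part of these markers in the low sterol genes of array b was not tested.

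Without RESTwt array b, Hmgcs1 (difference 0.26, limma adjusted p = 0.0412) and Insig1 (0.40, adjusted p = 0.0464) stayed called, Idi1 was not (0.25, adjusted p = 0.19), and all 8 differences were still positive. The members' median difference was then 0.18, with Lss at 0.15 and Srebf2 at 0.11. The Idi1 call also ended without RESTwt array a (adjusted p = 0.0751) and without any 1 of the RESTko arrays (adjusted p = 0.0647 to 0.0971). Without RESTwt array c, 6 of 8 genes were called: Insig1 (0.72), Cyp51 (0.49), Hmgcs1 (0.48), Idi1 (0.46), Sqle (0.32) and Fdft1 (0.29). A fit of the 6 NP arrays alone, which leaves the ES and TN groups out of the estimate of the spread, called 0 of 8 (Insig1 adjusted p = 0.0964, Hmgcs1 0.142, Idi1 0.166) and 549 genes in all. Across the NP arrays the neuronal markers ran from 8.03 to 8.37 in RESTko, against 7.30 to 7.95 in RESTwt, with 6 of 10 called higher. Fibroblast markers ran from 5.30 to 5.84 in RESTko, against 6.03 to 6.35 in RESTwt, with 5 of 10 called lower, and endoderm and epithelial markers from 7.31 to 7.40 in RESTko, against 7.58 to 7.965 in RESTwt, with 4 lower and 1 higher. Their part in the NP differences of the sterol genes was not tested.

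Within groups the deviations of the 8 genes were positively correlated, but the 8 did not move together on every array. Of the 8, 3 lay below the group mean on NP RESTwt array a, 4 on ES RESTko array a and 5 on NP RESTko array c. Over the 18 arrays, the deviations of 1 gene from its group means correlated with those of another with Pearson's r of 0.49 to 0.86 (median 0.76 over 28 pairs). Without the 3 NP RESTwt arrays, 27 of 28 pairs were still positive, with a range of -0.18 to 0.80 and a median of 0.57. The points share arrays and group means, and these values describe the arrays. They were not set beside those of pairs of other genes. Outside NP RESTwt, TN RESTko array c and NP RESTko array a lay below their group means in all 8 genes, with mean deviations of -0.11 and -0.034.

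**Figure D3:**
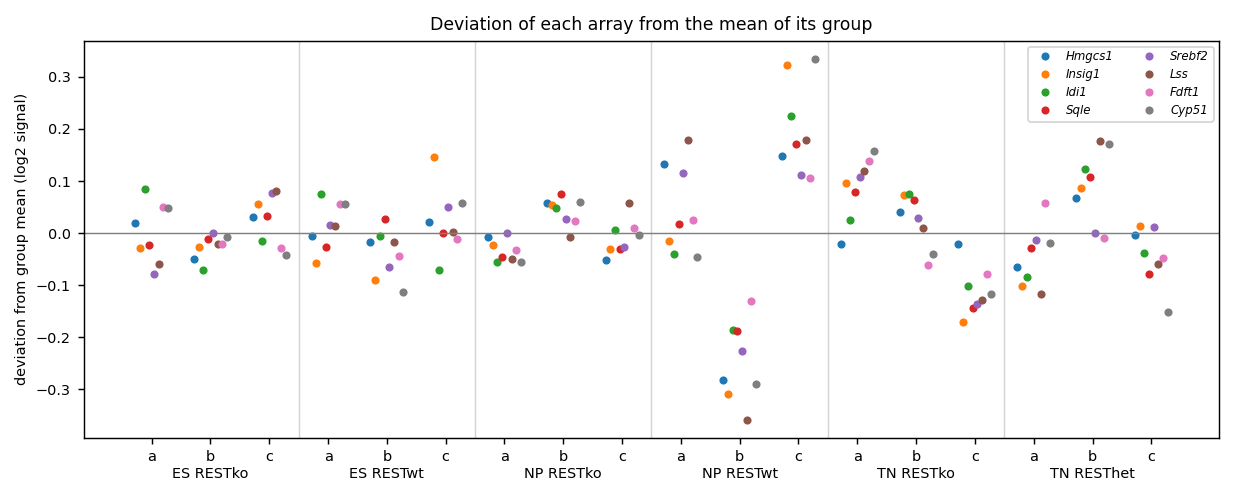
Deviation of each gene from the mean of its group (log2 signal, vertical axis) on each of the 18 arrays (horizontal axis), with a colour for each of the 8 genes. The 8 points of NP RESTwt array b lie between -0.36 and -0.13 and those of array c lie between 0.10 and 0.34.

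Insig1 was the only member called in the test of a change in the genotype difference between ES and NP. The change in the difference was 0.70 (SE 0.17, limma adjusted p = 0.0239), made of -0.14 at ES and 0.55 at NP. So 1 of 8 genes was called in this test, where 4.87% of all genes were. The changes in the other 7 ran from -0.05 (Sqle) to 0.29 (Cyp51). The Insig1 call ended, with adjusted p of 0.0542 to 0.0735, on leaving out NP RESTko array b, ES RESTko array a or b, or ES RESTwt array c, and the change was then 0.62 to 0.68.

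At TN no member was called between arrays labelled RESTko and RESThet. Hmgcs1 read 11.64, 11.70 and 11.64 in RESTko, against 11.34, 11.47 and 11.40 in RESThet, and the groups did not overlap (difference 0.26, SE 0.09, unadjusted p = 0.0107, limma adjusted p = 0.228). Idi1 read 10.27, 10.32 and 10.14 in RESTko, against 9.99, 10.20 and 10.03 in RESThet (0.17, SE 0.09, limma adjusted p = 0.524). The other 6 differences lay between -0.04 (Srebf2) and 0.07 (Fdft1). Hmgcs1 was the only member with an unadjusted p under 0.05, and limma was the only tool run. The share of all genes under that unadjusted threshold was not counted. Among all genes 1.16% were called at TN, and 5.83% had all RESTko arrays above all RESThet arrays, as Hmgcs1 did. A test of the change in the genotype difference between NP and TN, added after the values were seen, called 0 of 8 members, with changes of -0.53 (Insig1, adjusted p = 0.0977) to -0.14 (Hmgcs1), and 3.91% of all genes. That test sets RESThet at TN beside RESTwt at NP, and no RESTwt array was labelled TN.

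Between ES and NP the 8 genes did not move as a block. In the RESTko course Hmgcs1 rose by 0.54 (SE 0.09, limma adjusted p = 4.11e-05), Srebf2 by 0.46 (adjusted p = 0.000195) and Cyp51 by 0.60 (adjusted p = 0.000316). Fdft1 fell by 0.27 (adjusted p = 0.0046) and Sqle fell by 0.23 (adjusted p = 0.0313). In the RESTwt course Hmgcs1 (0.48), Srebf2 (0.33) and Cyp51 (0.31, adjusted p = 0.0345) rose, while Insig1 fell by 0.65 (SE 0.12, adjusted p = 0.000113) and Fdft1 fell by 0.35. So 5 of 8 were called in each course, 3 higher and 2 lower. Of all genes 66.0% were called in RESTko (32.2% higher, 33.9% lower) and 67.1% in RESTwt (31.0% higher, 36.1% lower). Insig1 averaged 9.60 ± 0.05 at NP and 9.56 ± 0.05 at ES in RESTko (difference 0.04, limma adjusted p = 0.778), against 9.05 ± 0.32 at NP and 9.70 ± 0.13 at ES in RESTwt. Idi1 (-0.11) was not called in either course, but its second probe set was, with -0.31 in RESTko (adjusted p = 0.00698) and -0.28 in RESTwt (0.0153). The second Fdft1 probe set was not called in either (-0.08 in RESTko, -0.16 in RESTwt). The Cyp51 groups overlapped in RESTwt, and its call ended without NP RESTwt array c (0.14, limma adjusted p = 0.264) or ES RESTwt array b (0.25, adjusted p = 0.124). The Sqle call in RESTko ended without NP RESTko array a or c or without any 1 of the ES RESTko arrays (adjusted p = 0.0519 to 0.0901). After quantile normalization, Fdft1 and Sqle were not called in RESTko, nor was Fdft1 in RESTwt (-0.07).

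In the mixed-strain wildtype cells, 2 of 8 genes were called between ES and NP, and both fell, where 38.9% of all genes were called, 19.9% higher and 19.0% lower. Insig1 read 6.78 and 6.86 at NP, against 7.45 and 7.74 at ES (difference -0.78, SE 0.15, limma adjusted p = 0.00293). Lss read 8.16 and 8.26 at NP, against 8.74 and 8.83 at ES (-0.57, SE 0.13, limma adjusted p = 0.00621), but neither of its other 2 probe sets was called (-0.16 and -0.22). Hmgcs1, which rose in both courses of the first platform, read 11.60 and 11.88 at NP, against 11.55 and 11.60 at ES (0.16, limma adjusted p = 0.435).

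From NP to TN every member was called higher on the first platform, and 6 of 8 were on the second. In arrays labelled RESTko, Sqle showed the largest difference of the 8, with 10.83, 10.81 and 10.61 at TN, against 8.996, 9.12 and 9.01 at NP. It rose by 1.71 (SE 0.09, 3.27-fold, limma adjusted p = 5.19e-12). Cyp51, the lanosterol demethylase, read 10.41, 10.21 and 10.13 at TN, against 8.61, 8.72 and 8.66 at NP, and rose by 1.59 (SE 0.12, 3.01-fold, adjusted p = 1.72e-09). Lss, which closes the sterol ring, read 9.64, 9.53 and 9.40 at TN, against 8.32, 8.37 and 8.43 at NP, and rose by 1.15 (SE 0.12, 2.22-fold, adjusted p = 8.34e-08). In each of these 3 genes the stages were far apart beside the spread of the arrays. Hmgcs1 rose by 0.92, Insig1 by 0.79, Fdft1 by 0.74, Idi1 by 0.64 and Srebf2 by 0.60, with limma adjusted p of at most 1.25e-05.

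With TN RESThet set against NP RESTwt, the differences were 1.94 for Sqle, 1.91 for Cyp51, 1.48 for Lss, 1.32 for Insig1, 1.06 for Hmgcs1, 0.91 for Fdft1, 0.86 for Srebf2 and 0.82 for Idi1. Genotype and stage differ together in that step. In all, 8 of 8 were called higher in each course, where 71.0% of all genes were called in RESTko (41.8% higher, 29.2% lower) and 73.1% in the other (43.2% higher, 29.9% lower). All 8 stayed called when any array was left out. The scaling of the arrays shifts this step for all genes: the median difference of all genes was 0.13 as deposited and -0.07 after quantile normalization in RESTko, and 0.14 and -0.07 in the other course. Higher genes made up 58.9% of the calls in RESTko as deposited and 43.3% after quantile normalization, and 59.1% and 43.5% in the other course. After quantile normalization the 8 members rose by 0.70 (Srebf2) to 1.95 (Sqle) in RESTko, and 8 of 8 were called in both courses.

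In the mixed-strain cells, Sqle read 11.53 and 11.16 at TN, against 9.56 and 9.86 at NP (difference 1.63, SE 0.17, limma adjusted p = 4.94e-05). Cyp51 read 9.95 and 9.75 at TN, against 8.25 and 8.54 at NP (1.46, SE 0.15, adjusted p = 3.66e-05). Srebf2 read 9.68 and 9.98 at TN, against 8.69 and 8.92 at NP (1.02, SE 0.16, adjusted p = 0.000555), and its second probe set, at 0.32, was not called (limma adjusted p = 0.166). Hmgcs1 rose by 1.00, and all 4 of its other probe sets were called, at 0.72 to 1.07. Insig1 rose by 0.59 (adjusted p = 0.00894). Lss rose by 0.50 (adjusted p = 0.00843), with its other probe sets at 2.22 and -0.23, so the size and sign for Lss depended on the probe set.

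Idi1 and Fdft1 were not called on the second platform. Idi1 read 9.004 and 9.12 at TN, against 9.18 and 9.37 at NP (difference -0.21, limma adjusted p = 0.227), and its other probe set gave -0.51 (adjusted p = 0.0234). Fdft1 read 10.19 and 10.24 at TN, against 10.02 and 10.06 at NP (0.18, limma adjusted p = 0.279), with its other 3 probe sets at -0.41 to 0.15 and none called. So 6 of 8 were called higher and 0 lower, where 50.8% of all genes were called, 21.7% higher and 29.1% lower. Leaving out an array left 4 to 6 of the 8 called: the Insig1 call ended without NP array a (adjusted p = 0.053) or TN array a (0.0538), and the Lss call without NP array a (0.0576), by limma. The platforms, strains and genotypes differ together, and the differences between the courses were not tested. Between NP and TN in RESTko, all 10 neuronal markers rose, as did 6 of 8 astrocyte, 6 of 8 oligodendrocyte and 7 of 10 fibroblast markers, and all 9 cell cycle genes fell. Their part in the rise of the sterol genes was not tested.

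**Figure D4:**
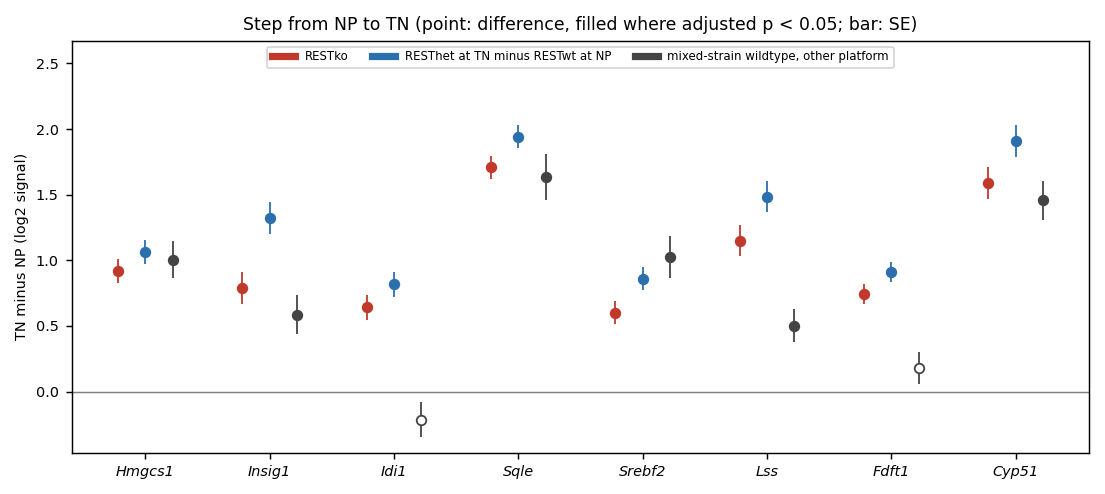
TN minus NP difference in log2 signal (vertical axis) for each of the 8 genes in RESTko, in RESThet at TN against RESTwt at NP, and in the mixed-strain wildtype on the second platform, with bars for the SE and filled points where limma's adjusted p was under 0.05. All points lie above 0.5 except Idi1 (-0.21) and Fdft1 (0.18) in the mixed strain.

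The other genes of the pathway give the setting. Of 12 other sterol enzymes analysed of 15 listed, 0 were called at ES and 0 at NP between genotypes, with median differences of -0.01 and 0.15, against all-gene medians of -0.03 and 0.01. Of all genes 9.24% were called at ES and 8.03% at NP. Limma was the only tool run, and the NP differences of these enzymes ran to 0.31. Among the proteins that handle SREBP, Scap, the escort of SREBP2, was higher in arrays labelled RESTko at ES (7.95 ± 0.04 in RESTko, 7.46 ± 0.05 in RESTwt, difference 0.49, limma adjusted p = 0.000211) and at NP (0.25, adjusted p = 0.0388). Mbtps1, the site-1 protease that cleaves SREBPs, was lower at ES (9.83 ± 0.13 in RESTko, 10.30 ± 0.04 in RESTwt, difference -0.47, adjusted p = 0.000433) and at NP (-0.37, adjusted p = 0.00428). Mbtps1 lies on chromosome 8, where the median difference of 961 genes was -0.17 at ES and -0.18 at NP, against -0.018 and 0.015 on the other autosomes. The sterol enzymes Mvd (-0.23 at ES, -0.18 at NP) and Msmo1 (-0.16 and -0.02) lie there too and were not called. None of the 8 members lies on chromosome 8.

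Among genes of sterol uptake and transport, Npc1, which exports cholesterol out of lysosomes, was higher in arrays labelled RESTko at ES (0.41, limma adjusted p = 0.0108). Stard4, a cytosolic sterol carrier, was lower there (-0.49, adjusted p = 0.00972), at 7.61 ± 0.05 in RESTko and 8.10 ± 0.06 in RESTwt. At NP, Lrp8, a lipoprotein and reelin receptor, was higher (0.44, adjusted p = 0.00213). Among genes of export and turnover, Abcg1, a sterol exporter, was lower at ES (-0.29, adjusted p = 0.0352), and Cyp46a1, the neuronal cholesterol 24-hydroxylase, was higher at NP (0.69, adjusted p = 0.00137). It averaged 7.26 ± 0.09 in RESTko and 6.57 ± 0.28 in RESTwt. The fatty acid synthesis genes Acly (0.29, adjusted p = 0.0263) and Elovl6 (0.31, adjusted p = 0.0234) were higher at NP, as 2 of 10. Of 6 genes of the isoprenoid branch, Coq2, of coenzyme Q synthesis, was higher at ES (0.37, adjusted p = 0.0112). At TN, 0 genes of these 6 lists were called, where 1.16% of all genes were. The lists held 4 genes of SREBP handling, 6 of uptake and transport and 9 of export and turnover. Their counts at ES and NP were not tested against the shares of all genes called there (9.24% and 8.03%). The alternatives, among them leaving out an array, were run for the 8 members only. How far the calls of related genes rest on single arrays, such as NP RESTwt array b, was not tested.

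**Figure D5:**
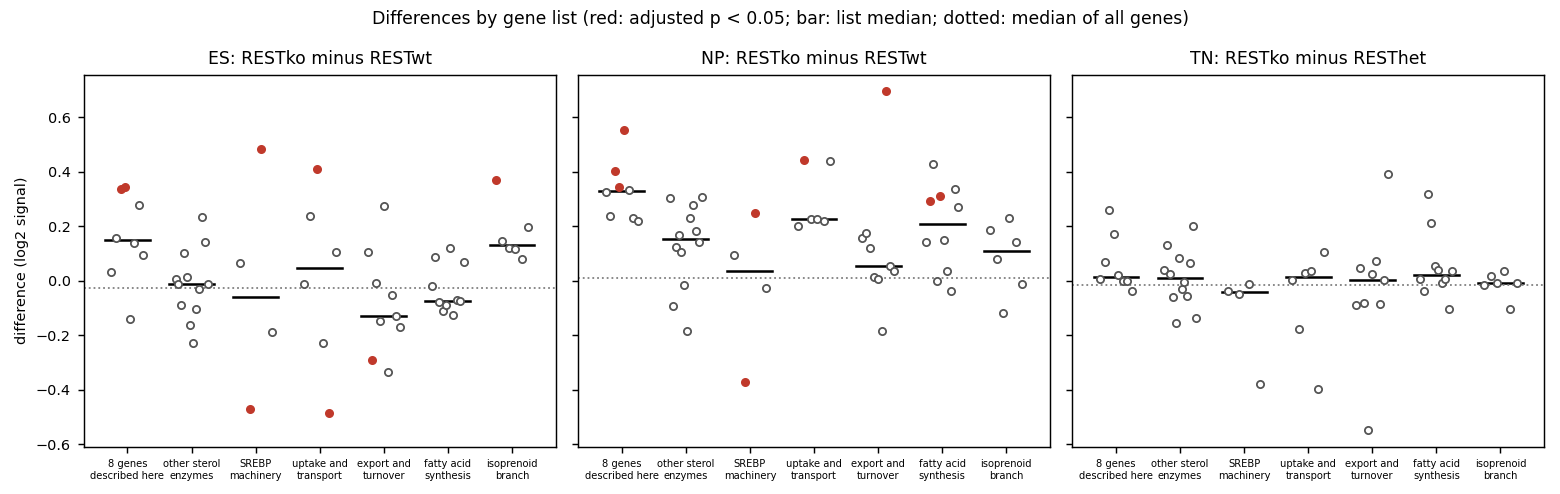
Difference between genotypes in log2 signal (vertical axis) at ES, NP and TN for the 8 genes and 6 lists of related genes (horizontal axis), with a point for each gene, red where limma's adjusted p was under 0.05, a bar for the list median and a dotted line for the median of all genes. At NP the median of the 8 genes is 0.33 and that of the 12 other sterol enzymes 0.15.

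The stage step from NP to TN was shared by most other sterol enzymes. Counting called genes, in RESTko 11 of 12 rose and 1 fell, and in TN RESThet against NP RESTwt 11 rose and 1 fell. In the mixed strain 10 rose and 1 fell. Of all genes 41.8% were called higher and 29.2% lower in RESTko. These shares were 43.2% and 29.9% in the second course, and 21.7% and 29.1% in the mixed strain. In RESTko, Nsdhl, which removes the methyl groups at carbon 4, rose by 1.82, Dhcr7, which reduces 7-dehydrocholesterol to cholesterol, rose by 1.70, and Sc5d rose by 1.66. Lbr, a nuclear envelope protein with sterol reductase activity, was the gene that fell in each course (-1.496 in RESTko, -1.23 in the second course, -2.24 in the mixed strain). Its counterpart Tm7sf2 rose by 1.17 in RESTko, with 1.61 in both other courses. Of 10 fatty acid synthesis genes, 9 rose and 0 fell in RESTko, among them Elovl6 (1.55), Fads2 (1.51) and Acss2 (0.85). Of 9 export and turnover genes, 6 rose and 1 fell in RESTko, with Abcg4 at 2.46 and Cyp46a1 at 1.36. Mbtps1 fell too (-0.62 in RESTko, -0.76 in the mixed strain). Stard4 rose in TN RESThet against NP RESTwt (0.83) and fell by 0.88 in the mixed strain, and this difference between courses was not tested.

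Between ES and NP the other sterol enzymes were mixed in direction, as the members and all genes were. Counting called genes, in RESTko 2 of 12 rose and 5 fell, in RESTwt 2 rose and 6 fell. In the mixed strain 4 rose and 4 fell. Of all genes 32.2% were called higher and 33.9% lower in RESTko. These shares were 31.0% and 36.1% in RESTwt, and 19.9% and 19.0% in the mixed strain. Hsd17b7, a ketoreductase of sterol demethylation, rose in each course (1.26 in RESTko, 1.20 in RESTwt, 0.91 in the mixed strain). Ebp, the sterol isomerase, fell on the first platform (-1.15 in RESTko, -1.07 in RESTwt), and Pmvk, phosphomevalonate kinase, fell in each course (-0.95 in RESTko, -0.89 in RESTwt, -1.09 in the mixed strain). Outside the synthesis genes, the lipoprotein receptor gene Vldlr rose by 3.33 in RESTko and by 2.99 in RESTwt, and Apoe, the main apolipoprotein of the brain, fell (-2.68 in RESTko, -2.84 in RESTwt).

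Likeness was measured as Pearson's r with the mean of the 8 genes' centred log2 values. Over the 18 arrays the closest of 19930 other genes was Dhcr7 (r = 0.991), followed by Trappc6b (0.986), Slc6a15 (0.985), Ndfip1 (0.985), Dpp6 (0.985), Osbpl2 (0.984), Srpk2 (0.984) and Scrn1 (0.984). These values follow the 3 stages, and over the 6 arrays of the second platform they were 0.985 for Dhcr7, 0.98 for Trappc6b and 0.603 to 0.94 for the other 6. For deviations from group means, which remove stage and genotype, the closest were Glra1 (r = 0.905), Dhcr7 (0.893), Trak1 (0.867), Gnptg (0.863), Scrn1 (0.863), Stard4 (0.862), Osbpl2 (0.858) and Nsdhl (0.844). Over the 6 arrays of the second platform, the levels of these 8 genes correlated with the members at -0.901 (Stard4), 0.405 (Trak1), 0.577 (Gnptg) and 0.829 to 0.985 (the other 5). Without the NP RESTwt arrays the 8 closest by deviations were other genes, led by Pkd1 (r = 0.924), Brinp3 (0.909), Map3k11 (0.901) and Ctsd (0.899), which are named here after their values were seen. Which genes were the 8 closest by deviations thus depended on those 3 arrays. Without them Dhcr7 still ranked 12 of 19930 (r = 0.878), Stard4 ranked 138 (0.758) and Nsdhl ranked 242 (0.715). Of the 47 other pathway genes, 12 were among the 100 closest by deviations, and 5 were when the NP RESTwt arrays were left out. By the levels over the 18 arrays 3 were: Dhcr7, Sc5d and Acly. The arrays are shared by all genes, and these correlations are descriptions.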

How the data were processed

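Total RNA of 24 samples, prepared with TRIzol and RNeasy columns, was hybridized to Affymetrix arrays. The authors deposited log2 probe-set signals, per the labels and the values of the tables. Per the submitters' processing notes the software was oligo 1.14.0; the sources used here do not state the background correction or normalization, and the values were used as deposited. Precision is limited by the number of arrays. The annotation gave 21789 of 35556 probe sets of the first platform 1 symbol, 1621 more than 1 and 12146 no symbol (34958, 932 and 9211 of 45101 on the second). A gene was its single-symbol probe set with the highest mean.

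Group means were estimated on all arrays of a platform by lmFit and eBayes (limma 3.58.1, R 4.3.3, two-sided tests). Benjamini-Hochberg adjustment ran over every gene in the comparison. Genes with adjusted p under 0.05 were called. The procedure was tested on simulated data with 200 changed genes. The members and the lists were chosen with earlier results of these data known. Named genes were the 8 members, related genes called between genotypes (up to the 4 largest differences per list) or lying on chromosome 8, up to 3 of the largest called stage differences per list, and the 8 closest by each likeness. Motifs were searched on both strands of the RefSeq windows. Alternatives were quantile normalization, omitting the 30% dimmest genes, the mean over probe sets, single probe sets, array weights, trend and robust eBayes, fits of the compared groups alone, a replicate block and omission of each array.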

Additional observations from a re-analysis of the deposited data

Results flagged for a closer look

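Genotype differences that changed between stages were found by limma's test of the change, adjusted over all genes. Between ES and NP the RESTko minus RESTwt difference of Insig1 changed by 0.70 (adjusted p = 0.0239). That of Stard4 changed by 0.71 (adjusted p = 0.0145), that of Cyp46a1 by 0.75 (0.015), that of Abcg1 by 0.47 (0.0288) and that of Npc2, a lysosomal sterol carrier, by 0.46 (0.0149).

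Between NP and TN, where RESThet replaced RESTwt, the difference changed by -0.78 for Cyp46a1 (limma adjusted p = 0.0149), by -0.62 for Lrp8 (0.00466) and by -0.62 for Stard4 (0.0392). This test was added after the values were seen. In both tests, the calls of genes outside the 8 were not rerun with an array left out. Among the 8 genes of the report, Insig1 alone was called in the first test and 0 in the second. Of all genes 4.87% were called in the first and 3.91% in the second. The Insig1 call ended without NP RESTko array b, ES RESTko array a or b, or ES RESTwt array c (limma adjusted p = 0.0542 to 0.0735).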

How the results depend on the processing

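Of the counts of called members, those of the NP to TN step in both courses of the first platform (8 of 8) and of the TN genotypes (0) were the same under every alternative run. At ES, 2 members were called, 1 after quantile normalization and 0 to 3 on leaving out an array. The count was 3 in the fit of the compared groups alone and with array weights. It was also 3 without the 30% dimmest genes and with trend and robust eBayes. Sqle was the gene added in these fits (limma adjusted p = 0.0197 to 0.0407). At NP, 3 were called, 0 when the fit held the compared groups alone and 2 to 6 on leaving out an array. That count was 2 with array weights, and 4 without the dimmest genes or with trend and robust eBayes. The change of the genotype difference between ES and NP called 1, and 0 to 1 on leaving out an array. Between ES and NP, RESTko called 5 members, 3 after quantile normalization and 4 to 5 on leaving out an array, and RESTwt called 5 and 4 to 6. The mixed strain called 2 between ES and NP, and 1 with the mean over probe sets. Between NP and TN it called 6, all higher, and 7 with the mean over probe sets, 6 higher and 1 lower. The lower gene was Idi1 (-0.36, limma adjusted p = 0.0213), which rose on the first platform. The Lss difference between TN and NP in the mixed strain was 0.50, against -0.23 with another of its probe sets (adjusted p = 0.196). Of single-gene values under the alternatives, 1741 kept direction and call, 44 lost and 21 gained the call, and 44 changed sign, of which 43 were called under neither setting and 1 is the Lss value above. The cause was not tested.

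The count of all genes called at NP was 1602, against 549 in the fit of the compared groups alone and 872 to 1776 on leaving out an array. At ES it was 1842, against 3430 with array weights and 1190 to 1962 on leaving out an array. At TN it was 231, against 50 in the fit of the compared groups alone and 117 to 256 on leaving out an array. For the change between ES and NP it was 970, against 1537 with array weights. With a replicate block, 2 members were called at ES, 3 at NP and 0 at TN, as without it. The letters were not taken as a pairing, although a and b matched at NP. Deviations of same-letter NP arrays correlated at 0.399 (a), 0.309 (b) and 0.007 (c). RESTko array a against RESTwt array b gave -0.353, and RESTko array b against RESTwt array a gave -0.355. NP RESTko array c was closer to RESTwt array b (0.113). Same-letter values for a, b and c were 0.111, 0.152 and -0.052 at ES, and -0.142, 0.04 and 0.085 at TN. With 3 arrays a group, or 2 on the second platform, differences of the size seen at ES sit near the threshold.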
